A study of Mus musculus with 24 samples.

Results

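The 10 genes described here serve MHC class I antigen presentation, and they were taken by symbol from both expression tables of mouse hearts. They are the light chain gene B2m, the heavy chain genes H2-K1 and H2-D1, the transporter genes Tap1 and Tap2, the tapasin gene Tapbp, the immunoproteasome genes Psmb8, Psmb9 and Psmb10, and the transactivator gene Nlrc5. All 10 were among the 15667 genes listed for uninjected hearts and among the 15327 genes listed for injected hearts. All 10 passed the filter on low values in the uninjected hearts, and 9 passed it in the injected hearts, where Nlrc5 did not.

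Nearly every nucleated cell displays fragments of its own proteins on class I molecules, so that CD8 T cells can inspect them. The proteasome cuts proteins into peptides, the TAP transporter carries the peptides into the endoplasmic reticulum, and tapasin holds an empty class I molecule at the transporter until a peptide binds. Interferons raise the transcription of these genes, through IRF factors and NLRC5 among others, and they replace the constitutive catalytic subunits of the proteasome with the immunosubunits. Heart muscle is known for low class I levels at rest.

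Each of 6 groups held 4 libraries from hearts at postnatal day 7.5, labelled as heart apex (the study's methods name the ventricles). KO hearts lacked Xinβ (Xirp2), a muscle protein of the intercalated disc, through a germline LacZ-Neo insertion that replaced part of the gene, and WT hearts came from littermates. In 2 groups the mice were uninjected (WT and KO), and in 4 groups they received AAV9 at postnatal day 1 carrying GFP (WT/GFP, KO/GFP) or YAP with the activating S127A change (WT/YAP, KO/YAP). The vectors used the cardiac troponin T promoter, which is active in cardiomyocytes, so the transgenes were not aimed at the immune, endothelial or stromal cells that share the tissue. The mutant allele was made in R1 embryonic stem cells and was backcrossed to C57BL6, and the sexes were mixed in the groups. Uninjected libraries were read as 50 bp single ends and injected ones as 150 bp paired ends, in separately normalized tables, so levels are compared only within a table.

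Libraries held between 15015038 and 31154155 reads on genes, and values are CPM (reads of a gene scaled by the size of its library). Xirp2 lay between 0 and 0.972 CPM in the 12 KO libraries and between 56.0 and 168.4 CPM in the 12 WT libraries, as labelled. The 6 cardiomyocyte markers summed to between 49340 and 81946 CPM, and of the 7 T cell and 4 NK cell markers none was listed in uninjected hearts and only Cd4 in injected hearts. One library stood apart in the genes described here. For 31 of the 15327 genes, CPM + 1 in WT/GFP replicate 1 was over 2 times that in every other injected library, against 0 to 5 genes in each of the other 15 libraries. Its values are given apart below, and the main results that rest on WT/GFP are given with and without it. It was singled out by its high values in the members themselves, so leaving it out lowers the WT/GFP mean of every member. The p-values without it are therefore not an independent test.

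**Figure D1:**
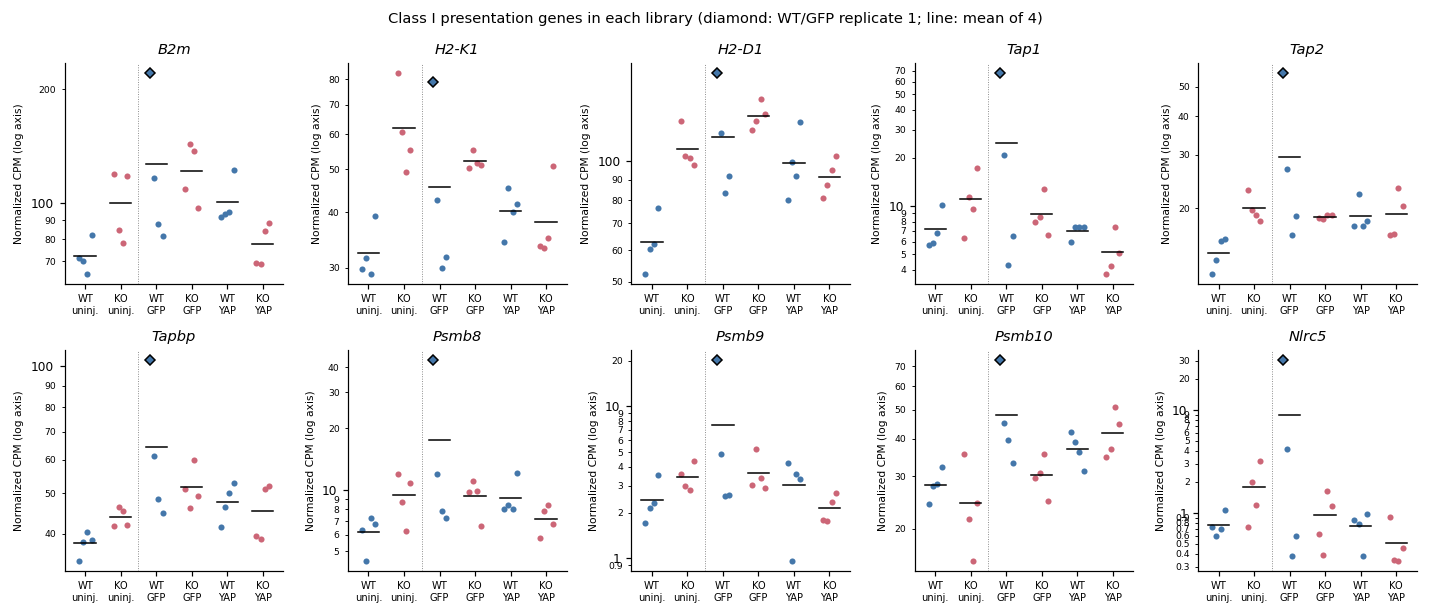
Each panel plots 1 class I presentation gene in all 24 libraries on a log axis of normalized CPM, with WT in blue, KO in red and a black line at the mean of 4 libraries. The dotted line separates the uninjected from the injected table, and the outlined diamond is WT/GFP replicate 1, the highest injected library for all 10 genes (220.8 CPM for B2m, 30.4 CPM for Nlrc5).

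The heavy chain genes share a promoter architecture that the sequences show directly. The stretches below come from the RefSeq promoters of GRCm38.p6 and are written 5′ to 3′ on the strand of the gene, with capitals for the TGACGC core of the X2 box and for ATTGG, which is CCAAT on the opposite strand. These are elements of the SXY module, on which NLRC5 and the RFX, CREB and NF-Y factors assemble. They are shown because H2-K1 and H2-D1 were the members that passed the test in the uninjected hearts.
H2-K1, chr17:34000359-34000388, minus strand: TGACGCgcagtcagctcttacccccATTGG
H2-D1, chr17:35262993-35263022, plus strand: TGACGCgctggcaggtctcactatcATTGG
Of these 30 bases, 23 were identical between the genes, and 19 bases separated the motifs in both. The H2-D1 stretch lies inside the gene as GENCODE draws it, since RefSeq places the start further downstream. Both genes had the same other 2 motifs further upstream. They are shown in capitals for H2-K1, where the first block of capitals is the class I κB site and the second is TTTCACTTC, an interferon-type element, followed by the stretch above.
H2-K1, chr17:34000359-34000458, minus strand: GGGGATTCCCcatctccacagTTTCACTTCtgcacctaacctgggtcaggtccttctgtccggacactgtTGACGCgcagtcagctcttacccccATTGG
B2m, chr2:122147548-122147638, plus strand: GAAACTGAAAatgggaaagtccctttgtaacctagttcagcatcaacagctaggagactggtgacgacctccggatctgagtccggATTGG

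The first block of capitals in the B2m stretch matches the core of the interferon-stimulated response element (ISRE), and the stretch ends with ATTGG. On both strands of the 250 bases before each start, the ISRE core, with any base at the middle 2 positions of that block, was found in 2.98% of the 32851 RefSeq promoters, and B2m was the only member with it. TGACGC occurred in 6.12% of promoters and CCAAT in 33.8%. The κB site as written for H2-K1 occurred in 0.0852%, and among the members only H2-K1 and H2-D1 held it. GAANNGAAA, the interferon-type element on the opposite strand, whose letters overlap the ISRE core, occurred in 6.31% of promoters, and H2-K1 and H2-D1 were the member genes that held it. The GAS motif TTCNNNGAA occurred in 7.02% of promoters and, among the members, in that of Psmb8. The κB and GAANNGAAA motifs were chosen after the sequences had been read, 8 of the 10 genes had a promoter entry, and a match is a description of letters, not a binding site.

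Of the 10 genes, 7 lie on chromosome 17 of GRCm38 (GENCODE M21 annotation), in or beside the major histocompatibility complex. H2-K1 (ENSMUSG00000061232) lies at 33996017 to 34000347 and H2-D1 (ENSMUSG00000073411) at 35262730 to 35267499. Psmb9 (ENSMUSG00000096727, 34181987 to 34187764), Tap1 (ENSMUSG00000037321, 34187553 to 34197225), Psmb8 (ENSMUSG00000024338, 34197721 to 34201454) and Tap2 (ENSMUSG00000024339, 34203527 to 34216321) stand side by side within 34335 bp. The exons of Tap1 and Psmb9 overlap by 212 bp on opposite strands, and 495 bp separate Tap1 from Psmb8. Tapbp (ENSMUSG00000024308) lies at 33915899 to 33929292, and its exons overlap those of Zbtb22 by 149 bp on the same strand. B2m (ENSMUSG00000060802) lies on chromosome 2 at 122147686 to 122153083, on the chromosome that also carries Xirp2. Psmb10 (ENSMUSG00000031897) and Nlrc5 (ENSMUSG00000074151) lie on chromosome 8, at 105935735 to 105938444 and at 94434356 to 94527272. Of all 50-base stretches of the transcripts, 9.6% for H2-K1 and 12.8% for H2-D1 occur in other genes, mainly of the H2-Q family, so their 50 bp reads could partly be exchanged with those genes. At 150 bases the shares were 0 and 1.4%. The 150 bp reads came from pairs.

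Per kilobase of exon, the light chain led in all 6 groups. In uninjected WT hearts the level of B2m was 83.9 ± 8.33 CPM per kb (SD, n = 4), and H2-D1 followed at 24.4 ± 3.92. Psmb10 at 16.5 ± 1.92, H2-K1 at 11.0 ± 1.58 and Tapbp at 10.5 ± 0.687 CPM per kb formed the middle of the order. Tap2 stood at 3.77 ± 0.464, Psmb8 at 1.84 ± 0.362, Tap1 at 1.31 ± 0.383, Psmb9 at 0.662 ± 0.215 and Nlrc5 at 0.0905 ± 0.0247 CPM per kb. H2-K1 and Tapbp, and Psmb8 and Tap1, were neighbours whose means lay closer together than the sum of their SDs. H2-D1 ranked second and Nlrc5 last in each of the 6 groups. In uninjected KO hearts H2-K1 ranked above Psmb10, at 21.1 ± 4.93 against 14.3 ± 4.94 CPM per kb.

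The comparison of uninjected KO with WT hearts asked how the genes differ with the mutant allele in the absence of a vector. Both classical heavy chains rose in KO hearts, H2-K1 from a mean of 32.4 ± 4.65 to 61.9 ± 14.5 CPM and H2-D1 from 62.8 ± 10.1 to 107.4 ± 12.7 CPM (SD, n = 4). H2-K1, which presents peptides as the Kb molecule in C57BL6 mice, measured 82.5, 60.7, 49.3 and 55.3 CPM in the KO libraries (replicates 1 to 4), against 29.8, 31.6, 29.1 and 39.2 CPM in the WT libraries. H2-D1, the second classical heavy chain, was at 126.1, 103.3, 102.2 and 97.9 CPM in KO and at 52.4, 60.3, 62.1 and 76.6 CPM in WT. For both genes the lowest KO library lay above the highest WT library. The log2 fold change on the log2(CPM + 1) scale was 0.90 for H2-K1 (SE 0.17, adjusted p = 0.016, limma with Benjamini-Hochberg adjustment) and 0.77 for H2-D1 (SE 0.13, adjusted p = 0.012, limma). H2-D1 passed with each library left out in turn, whereas H2-K1 did not pass without WT replicate 1, 2 or 3, where its log2 fold change stayed positive. In these bulk samples, a different number of cells of a type and a different amount of RNA per cell cannot be told apart.

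Of the 10 members, 2 were called in limma in the uninjected hearts, both higher, where 3.23% of all 15598 tested genes were called higher and 6.69% in either direction. In 9 of 10 the log2 fold change was positive, with a median of 0.49 against 0.001 over all tested genes. Nlrc5 reached the filter through 3 KO libraries and 1 WT library, and 8 of the other 9 members had a positive value. The groups did not overlap for H2-K1, H2-D1, Tap2 and Tapbp, all higher in KO, a state found in 8.01% of the tested genes. Tap2, a subunit of the peptide transporter, was at 23, 19.7, 19.0 and 18.2 CPM in KO and at 12.2, 13.5, 15.6 and 15.8 CPM in WT. Its log2 fold change of 0.46 (SE 0.12) had an adjusted p of 0.059 in limma, and it passed in limma without KO replicate 4 and in DESeq2, where 6.39% of genes were called higher. Tapbp, which links the class I molecule to the transporter, ranged from 41.8 to 46.3 CPM in KO and from 34.5 to 40.4 CPM in WT (log2 fold change 0.20, SE 0.09, adjusted p = 0.23, limma).

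The other 6 members overlapped between the uninjected groups. B2m, the light chain of every class I molecule, was at 118.9, 84.9, 78.1 and 117.8 CPM in KO and at 71.6, 70.3, 64.9 and 82.0 CPM in WT (log2 fold change 0.44, SE 0.16, adjusted p = 0.13, limma). Only KO replicate 3 lay below the highest WT library. Tap1, the partner of Tap2, was at 6.32, 11.4, 9.64 and 17.2 CPM in KO and at 5.72 to 10.2 CPM in WT (0.53, SE 0.28, adjusted p = 0.31, limma). Nlrc5, the transactivator of class I genes, was at 0.729 to 3.21 CPM in KO and 0.590 to 1.07 CPM in WT (0.58, SE 0.25, adjusted p = 0.21, limma, and the same with no filter). Both genes were highest in KO replicate 4. With 1 library left out, the log2 fold change of Tap1 ranged from 0.31 without KO replicate 4 to 0.75 without KO replicate 1, and that of Nlrc5 from 0.36 to 0.78 without the same libraries. Psmb8 ranged from 6.24 to 12.0 CPM in KO and from 4.48 to 7.27 CPM in WT (0.51, SE 0.21, adjusted p = 0.18, limma), and Psmb9 from 2.80 to 4.38 and from 1.70 to 3.54 CPM (0.39, SE 0.18, adjusted p = 0.25, limma). Psmb10, the third immunosubunit, was the 1 member with a negative value, at 35.7, 21.6, 15.6 and 24.4 CPM in KO and 24.2, 27.7, 28.2 and 32.2 CPM in WT (-0.25, SE 0.22, adjusted p = 0.57, limma). Its value ranged from -0.45 without KO replicate 1 to -0.07 without KO replicate 3.

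Other genes of the pathway were counted from lists. Of 12 tested non-classical and class Ib heavy chain genes, 4 rose and none fell in uninjected KO hearts, where 3.23% of all tested genes were called higher and the median log2 fold change of the list was 0.43. H2-T23, which encodes the Qa-1 molecule, rose from 7.94 ± 0.879 to 16.7 ± 3.97 CPM (SD, n = 4; log2 fold change 0.96, SE 0.18, adjusted p = 0.016, limma). H2-Q6 rose by 1.07 (SE 0.27, adjusted p = 0.0473, limma), H2-Q4 by 0.54 (SE 0.14, adjusted p = 0.0496, limma) and H2-Q1 by 0.51 (SE 0.12, adjusted p = 0.037, limma), on the log2 scale. These 3 belong to the family that shares sequence with H2-K1 and H2-D1. None of 7 genes for peptide loading and trimming, 3 proteasome activator genes and 3 constitutive catalytic subunits passed, and their median log2 fold changes were -0.01, 0.05 and 0.25. KO replicate 1 stood apart in the constitutive subunits, with Psmb5 at 110.2, Psmb6 at 211.5 and Psmb7 at 196.5 CPM. The other KO libraries were at 55.1 to 65.9, 112.1 to 127.1 and 124.0 to 138.6 CPM and the WT libraries at 52.9 to 65.1, 108.7 to 129.2 and 118.3 to 132.2 CPM. It was also the highest KO library for B2m, H2-K1 and H2-D1, and without it H2-K1 and H2-D1 passed at log2 fold changes of 0.75 and 0.69.

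Among 18 tested regulators of class I transcription, 4 rose and none fell, again beside 3.23% of all genes called higher. Irf7, a transcription factor of the type I interferon response, was at 9.96, 10.1, 9.09 and 10.9 CPM in KO and at 2.68, 3.02, 2.99 and 5.03 CPM in WT, without overlap (log2 fold change 1.34, SE 0.17, adjusted p = 0.0035, limma). Stat2 and Irf9, transcription factors that act downstream of the type I interferon receptor, rose by 0.79 (SE 0.15, adjusted p = 0.016) and 0.76 (SE 0.14, adjusted p = 0.015, limma). Rfxank, a subunit of the RFX complex on the SXY module, rose by 0.53 (SE 0.12, adjusted p = 0.032, limma). Irf1 was at 14.9 to 23.2 CPM in KO and at 14.7 to 18.0 CPM in WT, and it did not pass. Of 9 tested interferon signalling genes, 2 rose against the same 3.23%, the feedback inhibitors Usp18 (log2 fold change 1.41, SE 0.17, adjusted p = 0.003, limma) and Socs3 (0.74, SE 0.19, adjusted p = 0.0482, limma).

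WT/GFP replicate 1 was the highest of the 16 injected libraries for every member. Nlrc5 was at 30.4 CPM in it, 49.0 times the median of the other 15 libraries. On the log2(CPM + 1) scale, its gap to the next library was number 5 in size among 15327 genes. Tap1 was at 67.9 CPM (9.24 times that median), Psmb9 at 20.1 CPM (6.88 times) and Psmb8 at 43.2 CPM (5.37 times). Tap2 was at 2.98, B2m at 2.37, Psmb10 at 2.04, H2-K1 at 1.88 and H2-D1 at 1.67 times the median, with Tapbp between B2m and Psmb10. The transactivator, transporter and immunosubunit genes therefore exceeded the other libraries by more than the heavy chains did. The genes with the largest gaps in that library were Cxcl9, Tgtp2, Gbp6 and Tgtp1, which interferon-γ is known to induce; they were picked after their values were seen. WT/GFP replicate 2 was second among WT/GFP libraries for all 10 members, with Tap1 at 20.9 CPM and Nlrc5 at 4.18 CPM against 4.29 to 6.52 CPM and 0.381 to 0.603 CPM in replicates 3 and 4.

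The comparison of KO/GFP with WT/GFP repeats the test of genotype in vector-injected hearts. With all libraries, none of 9 tested members was called by limma, where 13.7% of 14597 genes were called, and 1 member, Psmb10, had an unadjusted p under 0.05, as 27.4% of genes had. Once WT/GFP replicate 1 was left out, 4 members had one, B2m, H2-K1 and H2-D1 with positive values and Psmb10 with a negative one, beside 24.4% of genes. H2-K1 was at 50.3, 55.2, 51.8 and 51.3 CPM in KO/GFP and at 78.6, 42.7, 29.9 and 31.7 CPM in WT/GFP. H2-D1 was at 119.6, 126.1, 143.0 and 131.6 CPM in KO/GFP and at 166.3, 118.0, 83.2 and 91.9 CPM in WT/GFP. For both genes, each KO/GFP library lay below WT/GFP replicate 1 and above the other 3. Their log2 fold changes were 0.30 (SE 0.22, adjusted p = 0.43, limma) and 0.23 (SE 0.18, adjusted p = 0.43, limma). Without WT/GFP replicate 1 the value for H2-K1 was 0.59 (SE 0.15, adjusted p = 0.023, limma) and that for H2-D1 0.42 (SE 0.14, adjusted p = 0.078, limma), and 1 of 9 members was called higher where 4.76% of genes were. That library was singled out by its values in these same genes, so this call is not an independent test. With replicates 1 and 2 both left out, H2-K1 (0.74, adjusted p = 0.015) and H2-D1 (0.56, adjusted p = 0.043, limma) were the 2 members called, where 2.76% of genes were called higher; this setting was chosen after the data had been seen. Of 10 other tested heavy chain genes, none passed with all libraries.

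The remaining members did not separate KO/GFP from WT/GFP. B2m was at 108.8, 143.3, 137.2 and 96.6 CPM in KO/GFP and at 220.8, 116.1, 87.9 and 81.6 CPM in WT/GFP, with a log2 fold change of 0.04 with all libraries, whose sign depended on the scaling, and 0.35 without WT/GFP replicate 1 (adjusted p = 0.20, limma). Tap1 was at 7.95, 8.57, 12.7 and 6.61 CPM in KO/GFP, between WT/GFP replicates 2 and 4. Its log2 fold change moved from -0.69 (SE 0.54) to 0.02 (SE 0.36) once WT/GFP replicate 1 was left out. Tap2 was at 18.4 to 19.0 CPM in the 4 KO/GFP libraries and at 55.5, 26.9, 16.3 and 18.8 CPM in WT/GFP, and Tapbp at 46.1 to 60.0 CPM against 103.5, 61.2, 48.3 and 44.8 CPM. Psmb10 was at 29.5, 30.8, 35.7 and 24.8 CPM in KO/GFP and at 73.4, 45.3, 39.7 and 33.3 CPM in WT/GFP. Its log2 fold change of -0.60 (SE 0.19, adjusted p = 0.0516, limma) missed the threshold, and it was called lower by edgeR and by DESeq2, where 6.52% and 8.3% of genes were. It was also called lower by limma without KO/GFP replicate 3 or WT/GFP replicate 4, and it was -0.37 (adjusted p = 0.15, limma) without WT/GFP replicate 1.

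The effect of YAP in KO hearts was the comparison of KO/YAP with KO/GFP. None of 9 tested members was called by limma with all libraries, where 14.8% of genes were called. At an unadjusted p under 0.05, 3 members passed, B2m and H2-D1 with negative values and Psmb10 with a positive one, where 29.6% of genes passed. DESeq2 called B2m and H2-D1 lower, where 8.89% of genes were, and edgeR called no member. B2m was at 69.2, 69.0, 84.3 and 88.2 CPM in KO/YAP, all below the 4 KO/GFP libraries (log2 fold change -0.63, SE 0.23, adjusted p = 0.082, limma). H2-D1 was at 81.1, 87.2, 95.1 and 102.9 CPM in KO/YAP, also below every KO/GFP library (-0.50, SE 0.18, adjusted p = 0.063, limma). H2-K1 was at 33.6, 33.2, 35.0 and 50.8 CPM in KO/YAP, where replicate 4 reached the KO/GFP level (-0.46, SE 0.22, adjusted p = 0.18, limma). Psmb10 was at 34.8, 36.9, 51.0 and 44.9 CPM in KO/YAP, with overlap by 1 library (0.45, SE 0.19, adjusted p = 0.13, limma).

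All 16 libraries share the spread in the fit. Without WT/GFP replicate 1, which belongs to neither group, the SEs were smaller and 4 members passed in limma, B2m (adjusted p = 0.011), H2-D1 (adjusted p = 0.020), H2-K1 (adjusted p = 0.038) and, in the other direction, Psmb10 (adjusted p = 0.0466). In that fit 7.06% of genes were called lower and 7.65% higher, and the library left out had been singled out by its values in the members. With only the 8 libraries of the compared groups, B2m and H2-D1 were called lower, where 4.2% of genes were. H2-D1 was also called without WT/GFP replicate 3. The groups did not overlap for B2m, H2-D1 and Psmb9, all lower in KO/YAP, a state found in 8.52% of genes. Psmb9 was at 1.80, 1.75, 2.34 and 2.69 CPM in KO/YAP and at 3.04, 5.23, 3.39 and 2.92 CPM in KO/GFP (-0.55, SE 0.44, adjusted p = 0.43, limma). Tap2 was at 16.3 to 23.3 CPM in KO/YAP, and its log2 fold change was 0.01 (SE 0.26) with all libraries.

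**Figure D2:**
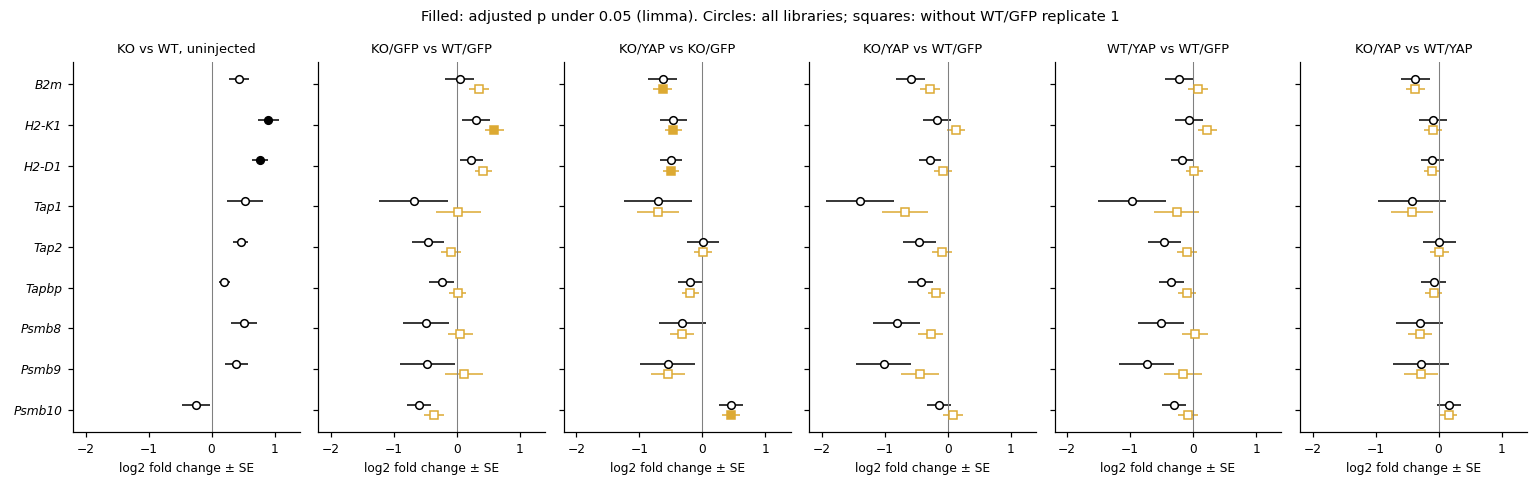
Each panel plots 1 comparison, with the log2 fold change and its standard error on the horizontal axis for the 9 members tested in both tables, from limma with all libraries (black circles) or without WT/GFP replicate 1 (yellow squares). Filled symbols passed an adjusted p of 0.05, which with all libraries were H2-K1 and H2-D1 in uninjected hearts, and without that library were H2-K1 in KO/GFP against WT/GFP and B2m, H2-K1, H2-D1 and Psmb10 in KO/YAP against KO/GFP.

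In the other comparisons none of 9 tested members was called by limma, edgeR or DESeq2. Between KO/YAP and WT/GFP 0.0206% of genes were called by limma, and 5 members had an unadjusted p under 0.05 (6.08% of genes), all with negative values, among them Tap1 (log2 fold change -1.39, SE 0.54). Without WT/GFP replicate 1 that number was 0, where 3.73% of genes passed, and Tap1 was at -0.68 (SE 0.36). Without replicates 1 and 2 Tap1 was at -0.08 (SE 0.25). Between WT/YAP and WT/GFP 0% of genes were called, and no member had an unadjusted p under 0.05, with or without WT/GFP replicate 1, where 6.93% of genes had one with all libraries. In WT/YAP, H2-K1 lay at 34.3 to 45.3 CPM, H2-D1 at 79.9 to 125.7 CPM and Tap1 at 5.93 to 7.42 CPM. Between KO/YAP and WT/YAP 0.0411% of genes were called, and no member had an unadjusted p under 0.05 with all libraries, against 11.1% of genes. B2m did not overlap between these last groups, at 91.7, 93.2, 94.7 and 122.5 CPM in WT/YAP against at most 88.2 CPM in KO/YAP (-0.37, SE 0.23, adjusted p = 0.56, limma), a state found lower in 4.72% of genes. These comparisons and those above share their control libraries.

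Whether YAP acted differently in KO and WT hearts was tested as the interaction of genotype and vector. No member was called by limma or edgeR, where 7.56% of genes were called by limma, and DESeq2 called Psmb10 higher, where 5.09% of genes were. Psmb10, with a difference of YAP effects of 0.76 (SE 0.27, adjusted p = 0.10, limma), was the 1 member with an unadjusted p under 0.05, against 23.7% of genes. Without WT/GFP replicate 1 its difference was 0.54 (SE 0.21, adjusted p = 0.15, limma), and 4 members had an unadjusted p under 0.05, beside 22.6% of genes, the others being B2m, H2-K1 and H2-D1 with negative values. That of H2-D1 was -0.52 (SE 0.20, adjusted p = 0.13, limma), against -0.33 (SE 0.25) with all libraries. The differences for H2-K1 and B2m were -0.39 (SE 0.32) and -0.41 (SE 0.33) with all libraries, and -0.68 (SE 0.21, adjusted p = 0.067, limma) and -0.71 (SE 0.22, adjusted p = 0.069, limma) without WT/GFP replicate 1. Without replicates 1 and 2 of WT/GFP they were -0.83 (adjusted p = 0.039) and -0.86 (adjusted p = 0.0457, limma), where 1.64% of genes were called lower.

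Nlrc5 was too low for the test in injected hearts. Outside WT/GFP replicates 1 and 2 it lay between 0.343 and 1.64 CPM in all injected libraries. It was at 0.621, 0.392, 1.64 and 1.16 CPM in KO/GFP and at 30.4, 4.18, 0.381 and 0.603 CPM in WT/GFP, so its order between these groups differs with WT/GFP replicates 1 and 2 and without them, and no fold change is given. When every listed gene was fitted, its log2 fold change was -0.34 (SE 0.66, adjusted p = 0.77, limma) between KO/YAP and KO/GFP.

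With YAP in KO hearts 6.92% of all tested genes were called lower and 7.85% higher, and the pathway lists are given beside these shares with no claim that they stand apart. Psme1, a subunit of the PA28 proteasome activator, fell by 0.42 on the log2 scale (SE 0.10, adjusted p = 0.009, limma), from 78.2, 100.9, 91.4 and 74.0 CPM in KO/GFP to 61.6, 62.9, 61.4 and 69.8 CPM in KO/YAP. It was the 1 of 3 activator genes that passed. Of 18 regulators 2 fell, Irf7 by 1.10 (SE 0.36, adjusted p = 0.0486, limma) and Rfxank by 0.62 (SE 0.14, adjusted p = 0.0075, limma). Of 10 interferon signalling genes 3 fell, Usp18 by 1.25 (SE 0.31, adjusted p = 0.013, limma), Socs3 by 0.98 (SE 0.25, adjusted p = 0.014, limma) and the receptor chain Ifngr1 by 0.51 (SE 0.13, adjusted p = 0.012, limma). None of 10 other heavy chain genes passed, and all 10 had a negative value, with a median of -0.35 against 0.01 over all tested genes. In KO/GFP against WT/GFP, Rfxank (0.60, adjusted p = 0.0094), Stat3 (0.49, adjusted p = 0.044), Socs3 (1.09, adjusted p = 0.0075), Jak2 (0.51, adjusted p = 0.038) and Ifngr1 (0.49, adjusted p = 0.017, limma) were higher, where 6.43% of all genes were, and none of 7 loading and trimming genes passed. Without WT/GFP replicate 1, Stat3 and Jak2 did not pass, and Usp18 did (1.26, SE 0.23, adjusted p = 0.0035, limma).

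The immunosubunits were set against the constitutive subunits that they replace, Psmb8 against Psmb5, Psmb9 against Psmb6 and Psmb10 against Psmb7, as descriptions without a test. Psmb10 amounted to 18.2, 17.4, 11.5 and 17.6% of Psmb7 in uninjected KO hearts and to 20.5, 23.3, 23 and 24.4% in WT hearts, without overlap. The CPM of Psmb10 itself overlapped. KO replicate 1 was the highest uninjected library for Psmb10, at 35.7 CPM, and for Psmb7, at 196.5 CPM. In KO/GFP Psmb10 was 17.9 to 22.3% of Psmb7 and in KO/YAP 23.7 to 35.5%, again without overlap. Psmb9 amounted to 2.50 to 2.91% of Psmb6 in KO/GFP and to 1.37 to 1.88% in KO/YAP, so this ratio stood the other way round. Psmb8 amounted to 9.47 to 19.7% of Psmb5 in uninjected KO and 7.56 to 12.0% in WT hearts, with overlap. In WT/GFP replicate 1 the 3 ratios were 37.7% for Psmb8, 12.8% for Psmb9 and 45.7% for Psmb10, the highest of all injected libraries. Across libraries Psmb10 also followed the other members least, with a Pearson r to the mean of the tested members of 0.06 over 8 uninjected and 0.62 over 16 injected libraries, where the other members had 0.66 to 0.93 and 0.79 to 0.97. These r values describe libraries that share genotype, vector and scaling, and the mean includes the gene itself. The injected ones include WT/GFP replicate 1, the highest library for every member.

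**Figure D3:**
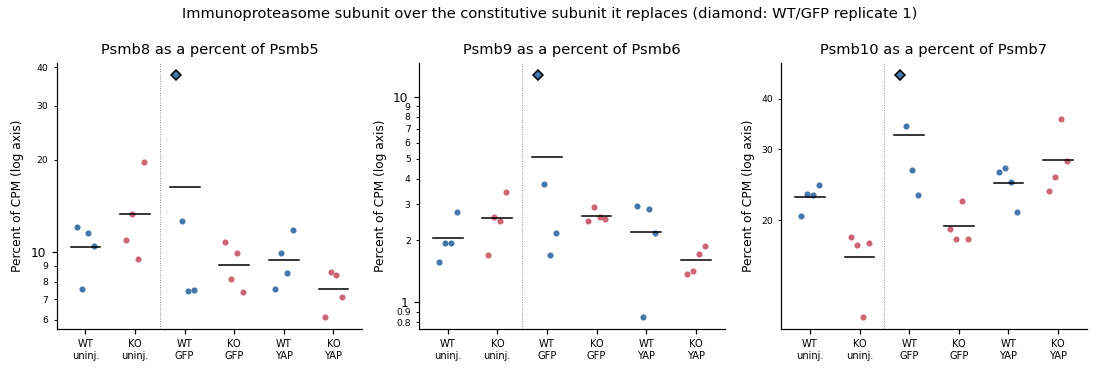
Each panel plots the CPM of 1 immunosubunit as a percent of the constitutive subunit it replaces, on a log axis, in the 24 libraries, with WT in blue, KO in red, a line at the mean of 4 libraries and the diamond for WT/GFP replicate 1. Psmb10 over Psmb7 separates uninjected KO (11.5 to 18.2%) from WT (20.5 to 24.4%), and Psmb9 over Psmb6 separates KO/GFP (2.50 to 2.91%) from KO/YAP (1.37 to 1.88%). The CPM of Psmb10 itself overlaps between uninjected KO and WT.

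MHC class II genes, which present peptides taken up from outside the cell and mark professional presenting cells, were counted from a list of which 5 were tested in uninjected hearts, 4 with a negative log2 fold change and 1, Ctss, with a positive one. Cd74, the invariant chain, was at 1.36, 0.889, 0.899 and 0.566 CPM in KO and at 3.66, 4.62, 4.19 and 4.99 CPM in WT. H2-Aa was at 0.231 to 0.660 CPM in KO and 1.56 to 2.01 CPM in WT, and H2-Ab1 at 0 to 0.874 CPM and 1.20 to 1.90 CPM. These 3 genes passed the filter on low values through the 4 WT libraries, so neither their test nor their separation in uninjected hearts is used. H2-Eb1 was at 0.823 to 2.04 CPM in KO and 1.52 to 2.33 CPM in WT (-0.45, SE 0.18, adjusted p = 0.17, limma). Ctss, a protease that cleaves the invariant chain, was at 5.99 to 10.9 CPM in KO and 4.97 to 7.995 CPM in WT (0.35, SE 0.20, adjusted p = 0.37, limma). In injected hearts 6 were tested. H2-Aa and H2-Ab1 were below 1 CPM in every KO/GFP library and passed the filter through the other 3 groups, so their tests against KO/GFP are not used. H2-Aa was at 0.196 to 0.716 CPM in KO/GFP, at 0.986 to 4.36 CPM in WT/GFP and at 1.29 to 2.69 CPM in KO/YAP. H2-Ab1, at 0.275 to 0.760 CPM in KO/GFP, overlapped with WT/GFP (0.502 to 4.78 CPM) and KO/YAP (0.643 to 3.15 CPM). Of the other 4, Ctss and H2-DMa passed neither between KO/GFP and WT/GFP nor between KO/YAP and KO/GFP. In KO/GFP against WT/GFP, where 7.22% of genes were called lower, Cd74 fell by 1.49 (adjusted p = 0.00057) and H2-Eb1 by 0.82 (adjusted p = 0.024, limma). Of the 4, only Cd74 passed there without WT/GFP replicate 1, where 5.11% of genes were called lower (-1.32, SE 0.22, adjusted p = 0.0021, limma). With YAP in KO hearts both genes rose, where 7.85% of genes did, Cd74 by 1.28 (adjusted p = 0.0015) and H2-Eb1 by 1.06 (adjusted p = 0.0053, limma).

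Markers of other cell types moved with these groups, and their part in the class I values was not tested. Of 8 tested macrophage markers, 6 fell in uninjected KO hearts, where 3.46% of all genes did, 6 fell in KO/GFP against WT/GFP (7.22% of all genes) and 6 rose in KO/YAP against KO/GFP (7.85%). The summed level of the listed markers (8 in uninjected and 9 in injected hearts, where Fcgr1 was listed but not tested) was 53.4 to 101.7 CPM in uninjected KO and 101.7 to 121.0 CPM in WT. It was 58.4 to 118.7 CPM in KO/GFP, 123.7 to 203.1 CPM in WT/GFP, 116.9 to 162.1 CPM in KO/YAP and 110.3 to 123.1 CPM in WT/YAP. The neutrophil markers S100a8 and S100a9 were called higher in uninjected KO hearts (3.23% of all genes). With Ngp they were called higher in KO/GFP against WT/GFP (6.43%) and lower with YAP in KO hearts (6.92%). These 3 summed to 45.3 to 99.2 CPM in uninjected KO against 3.73 to 9.37 CPM in WT, and to 28.2 to 46.9 CPM in KO/GFP against 3.04 to 11.2 CPM in KO/YAP, while Ly6g and Mpo were not among the listed genes. Ngp was at 2.87 to 6.02 CPM in uninjected KO and 0 to 0.865 CPM in WT and passed the filter there through the KO libraries, so its test there is not used. The macrophage and neutrophil counts of the injected hearts were the same without WT/GFP replicate 1.

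Other marker lists differed too. In KO/GFP against WT/GFP all 3 leukocyte markers, all 5 erythroid markers, 3 of 5 endothelial and 2 of 4 fibroblast markers fell, against 7.22% of all genes, and the counts were the same without WT/GFP replicate 1, against 5.11%. Of 4 smooth muscle and pericyte markers 1 fell there with all libraries and 3 rose with YAP in KO hearts, where 7.85% of all genes and 2 of 4 fibroblast, 2 of 5 endothelial and 1 of 3 leukocyte markers also rose. Clec9a, a dendritic cell marker, was called higher in KO/GFP than in WT/GFP (6.43% of all genes) and lower with YAP in KO hearts (6.92%). The other tested dendritic cell marker, Zbtb46, was not called, and Flt3, Xcr1 and Itgax were not among the listed genes. In uninjected hearts 1 endothelial, 1 fibroblast and 1 smooth muscle marker fell, against 3.46% of all genes. The 1 listed B cell marker there, Cd79b, was at 0 to 0.340 CPM in KO and 1.11 to 1.75 CPM in WT and passed the filter through the WT libraries alone. In injected hearts the 3 listed B cell markers, none of them tested, summed to 0 to 0.351 CPM in KO/GFP, 2.27 to 3.70 CPM in WT/GFP, 2.69 to 3.66 CPM in KO/YAP and 2.55 to 3.87 CPM in WT/YAP, so that KO/GFP lay below the other groups without overlap. The endothelial markers summed to between 936 and 1225 CPM in uninjected KO and between 1327 and 1457 CPM in WT, and the fibroblast markers to between 699 and 917 CPM against 1234 to 1326 CPM, both without overlap. Of 6 tested cardiomyocyte markers only Tnnt2 was called in these comparisons. It was higher in uninjected KO hearts (3.23% of all genes) and in KO/GFP against WT/GFP (6.43%), and lower with YAP in KO hearts (6.92%). The median log2 fold changes of the list were 0.14, -0.05 and -0.07. In WT/GFP replicate 1 the macrophage sum of 203.1 CPM and the leukocyte sum of 41.1 CPM (Ptprc, Coro1a, Laptm5) were the highest of the injected libraries.

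**Figure D4:**
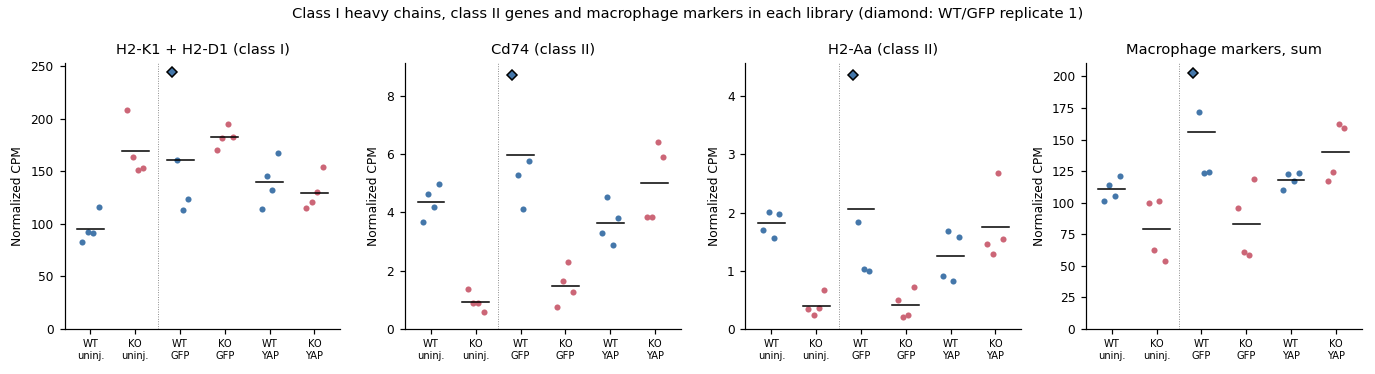
The panels plot, in normalized CPM from 0, the sum of H2-K1 and H2-D1, the class II genes Cd74 and H2-Aa, and the sum of the macrophage markers in the 24 libraries, with WT in blue, KO in red, lines at the means of 4 libraries and a diamond for WT/GFP replicate 1. Uninjected KO and KO/GFP hearts are low in Cd74 (0.566 to 2.28 CPM) and uninjected KO hearts are above WT hearts in the heavy chains.

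The genes whose profile over libraries was most like the mean of the members were found among 13723 genes tested in both tables, by the smaller of the Pearson r values over 8 and 16 libraries. H2-Q4, a class Ib heavy chain, led with 0.997 in the uninjected and 0.93 in the injected libraries. It was followed by Sp110 (smaller r 0.898), Igtp (0.891), Ifit3 (0.885), Parp9 (0.864), Rsad2 (0.86), Mndal (0.85) and Xaf1 (0.839). H2-Q4 was at 24, 22.7, 19.2 and 26.0 CPM in uninjected KO and at 13.7, 14.4, 15.1 and 18.9 CPM in WT, and WT/GFP replicate 1 was its highest library at 58.6 CPM. The r values have no test, since the libraries share groups and scaling. WT/GFP replicate 1 was the highest injected library for each of these genes and for every member, and the injected r was not computed without it.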

How the data were processed

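RNA from mouse hearts at postnatal day 7.5 (heart apex per the labels, ventricles per the study's methods) was sequenced from strand-specific polyA libraries. The authors trimmed reads (Cutadapt 2.3), aligned them to GRCm38 (HISAT2 2.1.0), counted genes with StringTie 1.3.4 and computed CPM with edgeR 3.26.1. The deposited values are a normalized signal: columns sum to between 942566 and 1134439, so they were read as CPM on scaled library sizes rather than plain CPM. Nearly all values (at least 99.96% per library, within 0.05 of a read) were whole multiples of 1 read. Such reads derive from StringTie coverage. The strand setting of the counting is not given in the sources used here.

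log2(CPM + 1) was compared with limma 3.58.1 in R 4.3.3, using its intensity trend, and p-values were adjusted by the Benjamini-Hochberg method over all genes above 1 CPM in at least 4 of 8 uninjected (15598 genes) or 8 of 16 injected libraries (14597 genes); an adjusted p under 0.05 is a call. The fold change understates changes of low genes. One model held the 16 injected libraries. The study's own gene-wise test was Fisher's exact test. Replicates are separate samples by their labels, and p-values measure the spread between them. Alternatives were other scalings, filters and pseudocounts, edgeR 4.0.16, DESeq2 1.42.0, a sex-linked covariate, a replicate block and each library left out. The omission of 2 libraries was added, and WT/GFP replicate 1 was singled out, after the data had been seen. All members are named, as are listed pathway genes that passed a test, Irf1 (chosen after its values were seen), and the 8 genes most like the members. The members and lists were chosen with earlier results of these data known. One regulator is not reported here. The scripts were tested on simulated data.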

Additional observations from a re-analysis of the deposited data

Results flagged for a closer look

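Of 60 sets of 4 values (10 genes in 6 groups), 8 had a highest or lowest library far from the others by Dixon's criterion, where chance gives about 3.0. In WT/GFP replicate 1 these were Nlrc5 at 30.4 CPM, Psmb8 at 43.2 CPM and Psmb9 at 20.1 CPM. In WT/YAP, replicate 4 was high for B2m (122.5 CPM) and Psmb8 (12.1 CPM), replicate 2 was high for Tap2 (22.2 CPM), and replicate 1 was low for Tap1 (5.93 CPM, against 7.35 to 7.42 CPM in the others). KO/YAP replicate 4 was high for H2-K1, at 50.8 CPM.

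For 4 members the KO libraries lay above the WT mean in uninjected hearts and below it in GFP-injected hearts. Their log2 fold changes between KO/GFP and WT/GFP were -0.46 for Tap2, -0.24 for Tapbp, -0.49 for Psmb8 and -0.47 for Psmb9. The difference between the tables was not tested. Without WT/GFP replicate 1 these values were -0.10, 0.01, 0.05 and 0.11.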

How the results depend on the processing

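In uninjected hearts the count of 2 called members was 0 with the replicate block, in which H2-K1 (0.90, adjusted p = 0.055) and H2-D1 (0.77, adjusted p = 0.067, limma) kept their size. Same-numbered libraries correlated at -0.19 to 0.14 in their deviations, which cannot show whether they shared a litter, and the labels name no litters. With 1 library left out the count was 1 to 3. For KO/GFP against WT/GFP the count of 0 was 1 with plain scaling, edgeR and DESeq2 (Psmb10 each time), 0 to 1 with 1 library left out and 2 without WT/GFP replicates 1 and 2. For KO/YAP against KO/GFP it was 2 with DESeq2 and with only the compared groups fitted, 0 to 4 with 1 library left out and 5 without those 2 replicates. For the interaction it was 1 with DESeq2 and 2 without those 2 replicates. The cause was not tested.

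The count below holds 741 member values under alternatives other than leaving out 1 library or WT/GFP replicates 1 and 2 together. The fit on the compared groups alone is included. Of these values, 726 kept their direction and their side of the threshold, 2 lost a call, 9 gained one and 4 changed sign. B2m in KO/GFP against WT/GFP went from 0.04 to -0.07 with plain scaling, -0.06 with edgeR and -0.06 with DESeq2, and Tap2 in KO/YAP against KO/GFP from 0.01 to just below 0 (0.00 at this rounding) with quantile scaling. Without WT/GFP replicates 1 and 2, all 9 tested members had a positive value between WT/YAP and WT/GFP, against 0 with all libraries. With 1 library left out, signs changed within these ranges of the log2 fold change. In KO/GFP against WT/GFP they were -0.13 to 0.35 for B2m, -1.21 to 0.02 for Tap1, -0.39 to 0.01 for Tapbp, -0.76 to 0.05 for Psmb8 and -0.75 to 0.11 for Psmb9. Tap2 ranged from -0.09 to 0.08 in KO/YAP against KO/GFP and from -0.08 to 0.09 in KO/YAP against WT/YAP, where H2-D1 ranged from -0.20 to 0.02. In KO/YAP against WT/GFP, H2-K1 ranged from -0.33 to 0.13 and Psmb10 from -0.29 to 0.08. In WT/YAP against WT/GFP, B2m ranged from -0.39 to 0.08, H2-K1 from -0.24 to 0.22, H2-D1 from -0.31 to 0.02 and Psmb8 from -0.77 to 0.03. In the interaction, Tap1 ranged from -0.44 to 0.79, Tapbp from -0.09 to 0.31, Psmb8 from -0.35 to 0.46 and Psmb9 from -0.39 to 0.47. The low counts of Nlrc5 and Psmb9 limit their precision.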
